A study of Homo sapiens with 7 samples.

Results

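The proteasome is the large protease that degrades proteins marked with ubiquitin. Its genes were taken as the rows of the deposited expression table whose symbol is PSM, a letter from A to G and a number. This gave 48 genes of 60234 in all. RNA with poly-A tails was sequenced from cardiomyocytes grown out of WTC-11, an established human induced pluripotent stem cell line, and matured for 35 days. The cells were then exposed passively, at 2 uM for 96 h, to an ASO (antisense oligonucleotide), a synthetic strand designed to bind 1 RNA by base pairing. A scrambled ASO was used for 3 libraries and an ASO against MYH7B for 4. All libraries share the line, the maturation time, the dose and the exposure time. No label says whether libraries of a group came from separate differentiations, so p-values measure only the spread between these libraries, which may be technical. The study's title presents MYH7B as a regulatory long noncoding RNA of the human heart. The comparison here asks what the MYH7B ASO did to the genes of the proteasome.

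Levels are in TPM, the share of transcripts corrected for their length, scaled to a sum of 1000000 in each library. MYH7B ASO replicate 1 has its values in another row order than the rest of the table. The main comparison therefore sets scrambled ASO replicates 1 to 3 against MYH7B ASO replicates 2 to 4, and replicate 1, with its column reordered, is given beside it. The ASO target MYH7B had 23.0, 36.5 and 25.1 TPM in the scrambled libraries and 9.30, 5.65 and 6.31 TPM with the MYH7B ASO. The share of mitochondrially encoded genes was 27.4% to 33.6% in these 6 libraries and 17.2% in replicate 1. All 7 cardiomyocyte markers were above 1 TPM on average, with a summed level of 3483 to 4278 TPM in the scrambled and 2883 to 3771 TPM in the MYH7B ASO libraries. The 7 fibroblast markers summed to 2874 to 5162 TPM in the scrambled and 1332 to 2053 TPM in the MYH7B ASO libraries, and 2 of them were called lower (limma adjusted p under 0.05). The 4 smooth muscle markers summed to 934 to 1330 TPM and 543 to 723 TPM, with 1 called lower. None of the 3 immune markers reached 1 TPM, and 1 was at 0 in all 6 libraries. The part of this shift in the results below was not tested. In bulk RNA fewer cells of a type and less RNA per cell cannot be told apart.

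The 20S core of the proteasome is a stack of rings. Alpha subunits (PSMA) form the outer rings and the gate, and beta subunits (PSMB) form the inner rings, where PSMB5, PSMB6 and PSMB7 carry the protease sites. The 19S cap is made of ATPases (PSMC), which unfold the substrate, and of non-ATPase subunits (PSMD), which bind ubiquitin chains and remove them. Activators (PSME) can take the place of the cap, PSMF1 inhibits the core in vitro, and the PSMG chaperones build it. In heart muscle the ubiquitin-proteasome system turns over sarcomere proteins. When proteasome capacity is short, the transcription factor NFE2L1 raises the subunit genes together through the antioxidant response element, whose core letters are TGACNNNGC.

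Promoter windows are shown because NFE2L1 acts on subunit genes through this element. RefSeq start sites on GRCh38.p14 gave a window of 250 bases before and 50 after the first listed start for 42 of the 48 genes. The element, searched on both strands, was in 13 of these 42 windows (31.0%), in 13.6% of the windows of all 27305 genes and in 15.2% of those of genes expressed here. Among constitutive core and cap genes with a window, only PSMB3, PSMC4, PSMD1, PSMD3 and PSMD12 held it. No alpha subunit gene with a window did. The 6 genes without a window could not be searched. The others with it were PSMB9, PSMD5, PSMD9, PSME1, PSME2, PSME4, PSMG1 and PSMG2. The letters CCAAT, also searched on both strands, were in 19 of the 42 (45.2%), against 35.7% of all windows. The next lines give the 250 bases before the start, on the gene's strand, with the element in capitals. PSMB3, PSMD3 and PSMD12 stand for a core subunit and cap subunits that hold it.
PSMB3 (chr17:38752491-38752740, plus strand): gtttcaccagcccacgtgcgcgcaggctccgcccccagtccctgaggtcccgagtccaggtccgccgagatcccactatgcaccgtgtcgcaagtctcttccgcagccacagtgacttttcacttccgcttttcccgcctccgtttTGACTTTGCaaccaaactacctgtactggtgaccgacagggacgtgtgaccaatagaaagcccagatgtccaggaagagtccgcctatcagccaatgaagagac
PSMD3 (chr17:39980557-39980806, plus strand): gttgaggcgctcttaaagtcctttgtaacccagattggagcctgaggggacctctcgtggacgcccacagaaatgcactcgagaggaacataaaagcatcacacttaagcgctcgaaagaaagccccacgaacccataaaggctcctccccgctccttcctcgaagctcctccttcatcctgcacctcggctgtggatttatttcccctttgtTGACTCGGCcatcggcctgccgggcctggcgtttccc
PSMD12 (chr17:67366578-67366827, minus strand): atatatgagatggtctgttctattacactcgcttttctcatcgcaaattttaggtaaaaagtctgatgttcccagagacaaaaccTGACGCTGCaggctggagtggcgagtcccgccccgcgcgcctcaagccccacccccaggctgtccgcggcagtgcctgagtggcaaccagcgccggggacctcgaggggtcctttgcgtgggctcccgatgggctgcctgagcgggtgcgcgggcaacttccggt
PSMC6, PSMF1 and PSMD14 are shown because they were among the proteasome genes with the lowest p-values, and TGACNNNGC was not in their windows.
PSMC6 (chr14:52706950-52707199, plus strand): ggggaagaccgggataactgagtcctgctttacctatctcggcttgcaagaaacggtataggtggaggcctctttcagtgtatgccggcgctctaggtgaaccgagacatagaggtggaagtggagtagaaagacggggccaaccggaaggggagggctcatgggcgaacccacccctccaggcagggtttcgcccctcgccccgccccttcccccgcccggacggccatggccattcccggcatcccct
PSMF1 (chr20:1113013-1113262, plus strand): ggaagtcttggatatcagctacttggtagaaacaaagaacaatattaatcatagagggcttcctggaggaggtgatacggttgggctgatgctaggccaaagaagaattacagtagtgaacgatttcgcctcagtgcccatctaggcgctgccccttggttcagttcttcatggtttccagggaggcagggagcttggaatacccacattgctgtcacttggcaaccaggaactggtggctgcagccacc
PSMD14 (chr2:161308175-161308424, plus strand): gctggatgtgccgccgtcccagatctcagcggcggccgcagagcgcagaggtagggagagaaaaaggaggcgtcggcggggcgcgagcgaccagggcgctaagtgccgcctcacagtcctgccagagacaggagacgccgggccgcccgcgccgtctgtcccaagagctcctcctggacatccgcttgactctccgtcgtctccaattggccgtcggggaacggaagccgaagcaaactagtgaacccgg
The element was in the window of 13 tested genes, whose median log2 fold change with the MYH7B ASO was 0.16. It was not in the window of 27 others, whose median was 0.04, and the remaining 6 tested genes, with no window, had a median of 0.21. The match is of letters and does not show that a factor binds.

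With the MYH7B ASO most core and cap genes were slightly higher in mean (the summed level of all proteasome genes by a ratio of 1.09), and no proteasome gene passed the test across all genes. The inhibitor PSMF1, the deubiquitinase PSMD14 and 3 of 4 core chaperones were lower in mean. Of the 48 genes, 46 had a mean of at least 1 TPM and were tested. PSMA8, a testis form, was listed at 0 in every library, and PSMB11, the thymus form, was at most 0.111 TPM. The test was limma on log2(TPM + 1) over 15988 genes, with Benjamini-Hochberg adjustment. It called 0 of the 46, against 1.66% of all genes tested. Of all genes 29 (0.181%) were called higher and 236 (1.48%) lower, or 58 and 213 after median-ratio rescaling. The lowest adjusted p was 0.139, for PSMF1. At an unadjusted p under 0.05 there were 4 higher genes (8.70% of the 46, against 4.67% of all genes) and 2 lower ones (4.35%, against 10.6%). After median-ratio rescaling these were 14 higher, against 8.6% of all genes, and 2 lower, against 9.23%. The authors' deposited table has 8.71% of its genes at an adjusted p-value under 0.05. Of the 46, 2 were called higher there (PSMA7 and PSMC6, or 4.35%, against 3.02% of its genes) and 1 lower (PSMF1, or 2.17%, against 5.69%).

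**Figure D1:**
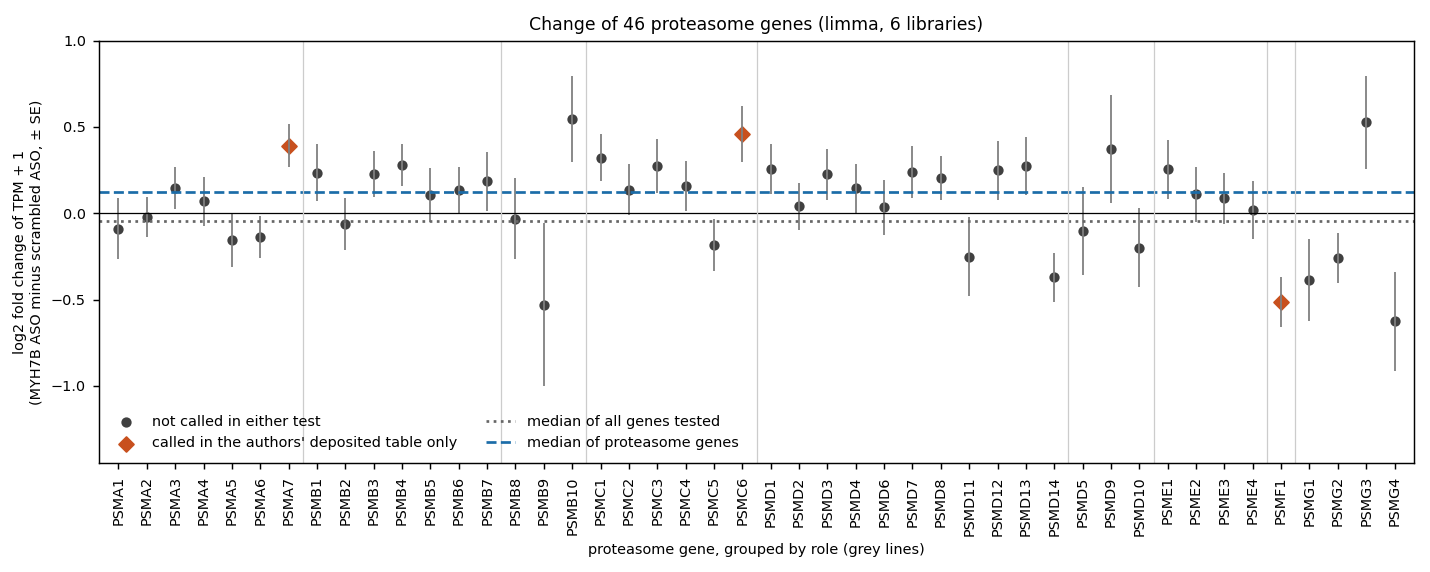
Log2 fold change of TPM + 1 (MYH7B ASO minus scrambled ASO, vertical axis, with the standard error from limma) of the 46 tested proteasome genes, grouped by role along the horizontal axis. Most points of the core and cap lie above the dotted median of all genes (-0.04), and the dashed line marks the median of the proteasome genes (0.12).

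The mean log2 fold change was above 0 for 30 of the 46 genes (65.2%), against 45.2% of all genes tested. The median over the 46 was 0.12, with a middle range from -0.10 to 0.24, beside a median of -0.04 over all genes. Of the 46, 32 had a fold change above 0 in the authors' deposited table (69.6%), against 50% of its genes, and their median was 0.18. Individual genes spread from -0.63 for PSMG4 to 0.54 for PSMB10. The groups did not overlap for 8 higher genes (17.4%, against 7.11% of all genes) and 4 lower ones (8.70%, against 14.1%). The higher ones were PSMA3, PSMA7, PSMB4, PSMC1, PSMC6, PSMD1, PSMD8 and PSMD13, and the lower ones PSMA6, PSMD14, PSMF1 and PSMG2. With replicate 1 added, PSMC1, PSMC6 and PSMF1 overlapped, which left 6 higher (against 4.57%) and 3 lower (against 10.3%).

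Proteasome genes together took 2963, 2888 and 3289 TPM in scrambled replicates 1 to 3. They took 3404, 3445 and 3074 TPM in MYH7B ASO replicates 2 to 4, and 3523 TPM in replicate 1. The scrambled mean was 3047 ± 213 TPM (SD, n = 3) and the MYH7B ASO mean 3308 ± 203 TPM (SD, n = 3), a ratio of 1.09, and scrambled replicate 3 was above MYH7B ASO replicate 4. As a share of TPM outside mitochondrially encoded genes the 3 scrambled libraries had 0.442%, 0.432% and 0.453%, and the 3 MYH7B ASO libraries 0.505%, 0.501% and 0.463%. On that scale the 6 libraries did not overlap, but replicate 1, at 0.425%, was below every scrambled library. The median proteasome gene lay 0.05, 0.16 and 0.06 log2 units below the median gene of the library in scrambled replicates 1 to 3, in deviations from each gene's mean. It lay 0.06, 0.09 and 0.10 above it in MYH7B ASO replicates 2 to 4. The highest of the 6 values was in scrambled replicates 1 to 3 for 9, 1 and 8 genes and in MYH7B ASO replicates 2 to 4 for 17, 10 and 1. The lowest was in the scrambled libraries for 12, 16 and 2 genes and in the MYH7B ASO libraries for 4, 4 and 8. MYH7B ASO replicate 4 thus held more of the lowest values than of the highest. The median of all genes tested was also lowest in that library (-0.14 in the same deviations) and highest in scrambled replicate 3 (0.12). The same counts were not made over all genes, so whether they are particular to proteasome genes was not tested.

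**Figure D2:**
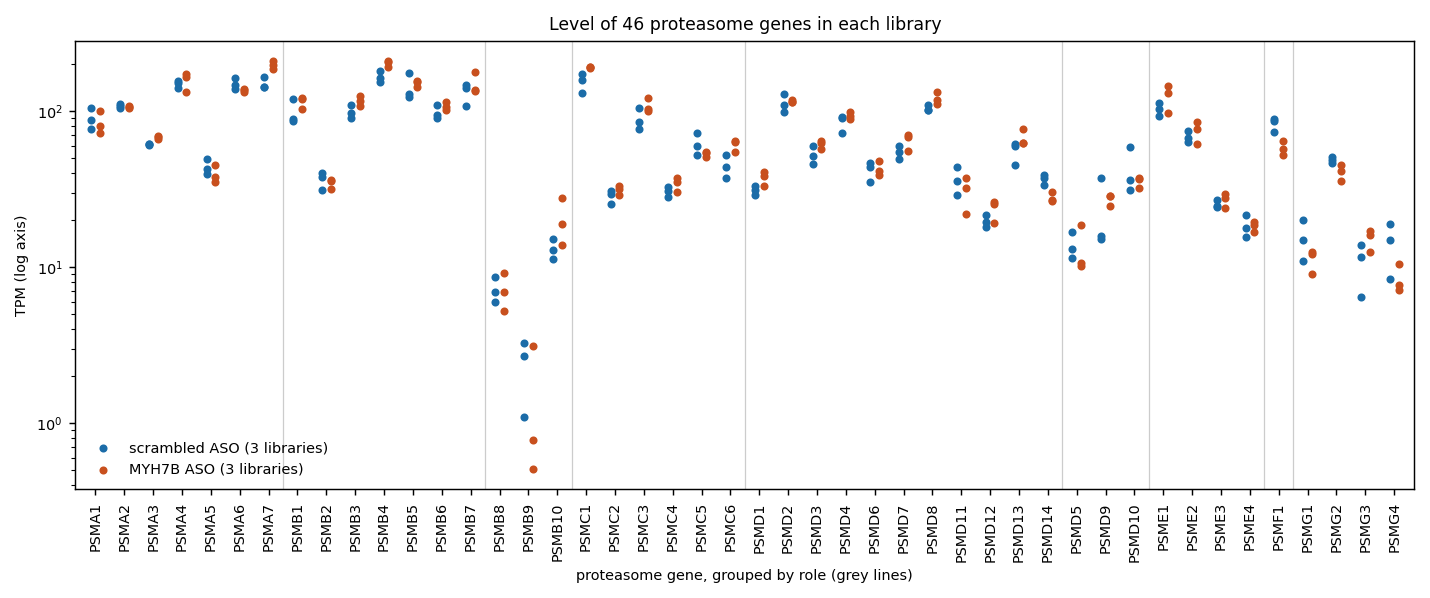
TPM (vertical log axis) of the 46 tested genes in each of the 6 libraries, 1 point per library. The constitutive core and cap genes have scrambled means from 19.6 TPM (PSMD12) to 166 TPM (PSMB4), and the scrambled means of the inducible PSMB8, PSMB9 and PSMB10 lie below these.

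Alpha subunits were split in direction. The 7 expressed genes ranged from 43.8 TPM (PSMA5) to 151 TPM (PSMA7) with the scrambled ASO, and 3 had a fold change above 0 and 4 below, with a median of -0.02 that became 0.05 after median-ratio rescaling and 0.01 without mitochondrially encoded genes. PSMA7 was the most abundant of them and had the second lowest p of all proteasome genes. It had 143, 143 and 166 TPM in the scrambled libraries and 198, 209 and 187 TPM with the MYH7B ASO, and 258 TPM in replicate 1. Every MYH7B ASO library was above every scrambled one. The PSMA7 difference was 0.39 on the log2 scale (standard error 0.12, limma adjusted p = 0.186). It was 0.43 in the authors' deposited table (adjusted p-value 0.0116). PSMA3 had 60.1, 61.1 and 61.3 TPM and then 65.7, 68.9 and 67.8 TPM, a small difference with no overlap (log2 fold change 0.15, limma adjusted p = 0.608), and 61.3 TPM in replicate 1. PSMA3 is overlapped by PSMA3-AS1 on the other strand (12.5 TPM on average), and whether the counting used strand is not given in the sources used here. PSMA6 had 162, 139 and 148 TPM and then 133, 136 and 139 TPM. Its lowest scrambled and highest MYH7B ASO values nearly touched (log2 fold change -0.14, limma adjusted p = 0.627). PSMA1, PSMA2, PSMA4 and PSMA5 had fold changes from -0.16 to 0.07 with overlapping groups.

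Of the 7 constitutive beta subunits, 6 had a fold change above 0, with a median of 0.19, and all 7 were above 0 after median-ratio rescaling. Their sum was 735, 701 and 880 TPM with the scrambled ASO and 889, 926 and 815 TPM with the MYH7B ASO, so scrambled replicate 3 reached into the other group. PSMB4, a structural subunit without a protease site, was the most abundant proteasome gene in mean. It had 155, 163 and 182 TPM and then 209, 205 and 192 TPM, with 196 TPM in replicate 1, and the groups did not overlap. The PSMB4 difference was 0.28 on the log2 scale (standard error 0.12, limma adjusted p = 0.321), and 0.33 in the authors' deposited table (adjusted p-value 0.0849). PSMB1, PSMB2 and PSMB3 had fold changes of 0.24, -0.06 and 0.23 with overlapping groups.

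The protease-site subunits overlapped between the groups. PSMB5, with chymotrypsin-like activity and the main target of bortezomib, had 122, 130 and 175 TPM and then 157, 154 and 144 TPM. The 3 MYH7B ASO values lay between the scrambled ones (log2 fold change 0.11, standard error 0.16, limma adjusted p = 0.794). PSMB6, with caspase-like activity, had 93.8, 90.5 and 110 TPM and then 106, 115 and 101 TPM (0.14, standard error 0.13). PSMB7, with trypsin-like activity, had 141, 108 and 146 TPM and then 137, 178 and 135 TPM (0.19, standard error 0.17). In each case the difference was close to its standard error.

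Their interferon-inducible counterparts, which make the immunoproteasome, were low. PSMB8, PSMB9 and PSMB10 together made up 6.10%, 5.71% and 5.44% of the TPM of the 6 catalytic genes in the scrambled libraries. The share was 8.63%, 5.06% and 6.07% with the MYH7B ASO, and 9.28% in replicate 1. PSMB10 had 11.3, 12.8 and 15.2 TPM and then 27.8, 13.9 and 18.8 TPM, with 36.7 TPM in replicate 1. MYH7B ASO replicates 2 and 1 were the high ones, and the lowest treated library lay within the scrambled range (log2 fold change 0.54, standard error 0.25, limma adjusted p = 0.350). Without MYH7B ASO replicate 2 the PSMB10 change was 0.30. PSMB8 had 8.64, 5.98 and 6.96 TPM and then 6.89, 9.18 and 5.24 TPM, and its direction changed with the scaling and the libraries used. PSMB9 had 3.26, 1.10 and 2.67 TPM and then 3.10, 0.771 and 0.506 TPM (-0.53, standard error 0.47), with a spread in each group as large as the difference. The 3 inducible genes therefore did not share a direction. PSMB9 overlaps PSMB8 and TAP1 on the other strand.

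The 19S ATPases, which form the motor of the cap, had the highest median of the constitutive groups at 0.22, with 5 of 6 above 0. Their sum was 384, 399 and 439 TPM with the scrambled ASO and 500, 482 and 454 TPM with the MYH7B ASO, with 498 TPM in replicate 1, so the groups did not overlap. PSMC6 had 37.2, 43.5 and 52.3 TPM and then 64.5, 62.9 and 55.0 TPM. All 3 MYH7B ASO libraries were above the scrambled ones, but replicate 1, at 45.2 TPM, was among them. The PSMC6 difference was 0.46 on the log2 scale (standard error 0.16, limma adjusted p = 0.230), or 0.35 with replicate 1 (adjusted p = 0.451). It was 0.47 in the authors' deposited table (adjusted p-value 0.0359). PSMC1, the most abundant ATPase gene, had 130, 172 and 159 TPM and then 192.5, 191.7 and 189.7 TPM, with 170 TPM in replicate 1. The 3 MYH7B ASO libraries lay within a narrow band above the scrambled ones (log2 fold change 0.32, standard error 0.14, limma adjusted p = 0.314). The PSMC1 value is uncertain, since 13 processed copies of it are listed, with a summed level of 7.12% of its own, and NRDE2 overlaps it on the other strand. PSMC2, PSMC3 and PSMC4 had fold changes of 0.14, 0.28 and 0.16, and PSMC5 had -0.18. All of these overlapped between the groups.

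Of the 11 non-ATPase cap subunits, 9 were above 0, with a median of 0.20, and PSMD14 and PSMD11 were below. PSMD14 is the deubiquitinase that strips ubiquitin chains from the substrate before it enters the core. It had 39.1, 33.3 and 37.0 TPM in the scrambled libraries and 30.5, 26.6 and 27.0 TPM with the MYH7B ASO, and 21.9 TPM in replicate 1. Every MYH7B ASO library, replicate 1 included, was below every scrambled one. The scrambled mean was 36.5 ± 2.92 TPM (SD, n = 3) and the MYH7B ASO mean 27.99 ± 2.14 TPM (SD, n = 3). The PSMD14 difference was -0.37 on the log2 scale (standard error 0.14, limma adjusted p = 0.268), and -0.28 in the authors' deposited table (adjusted p-value 0.354). Relative to the mean of the 11 subunits, PSMD14 was at 67.6%, 60.7% and 62.9% and then at 47.4%, 40.8% and 47.2%.

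The other cap subunits without overlap were higher. PSMD1, a scaffold of the base, had 31.2, 28.8 and 32.9 TPM and then 40.4, 38.3 and 33.0 TPM. PSMD8, of the lid, had 102, 101 and 109 TPM and then 117, 133 and 110 TPM. PSMD13, also of the lid, had 45.4, 59.6 and 61.8 TPM and then 62.1, 76.9 and 62.6 TPM. In all of these the nearest libraries of the groups almost touched, and the log2 fold changes were 0.26, 0.20 and 0.28 (limma adjusted p = 0.457, 0.506 and 0.487). PSMD4, a ubiquitin receptor, had 72.1, 90.9 and 92.2 TPM and then 98.7, 93.0 and 89.1 TPM (0.14, standard error 0.14). PSMD2, of the non-ATPase subunits the most abundant with the scrambled ASO (PSMD8 was higher with the MYH7B ASO), had 129, 110 and 99.2 TPM and then 117, 115 and 114 TPM (0.04, standard error 0.14), and 204 TPM in replicate 1. PSMD3, PSMD6, PSMD7 and PSMD12 had fold changes from 0.03 to 0.25, and PSMD11 had -0.25 with a standard error of 0.23.

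**Figure D3:**
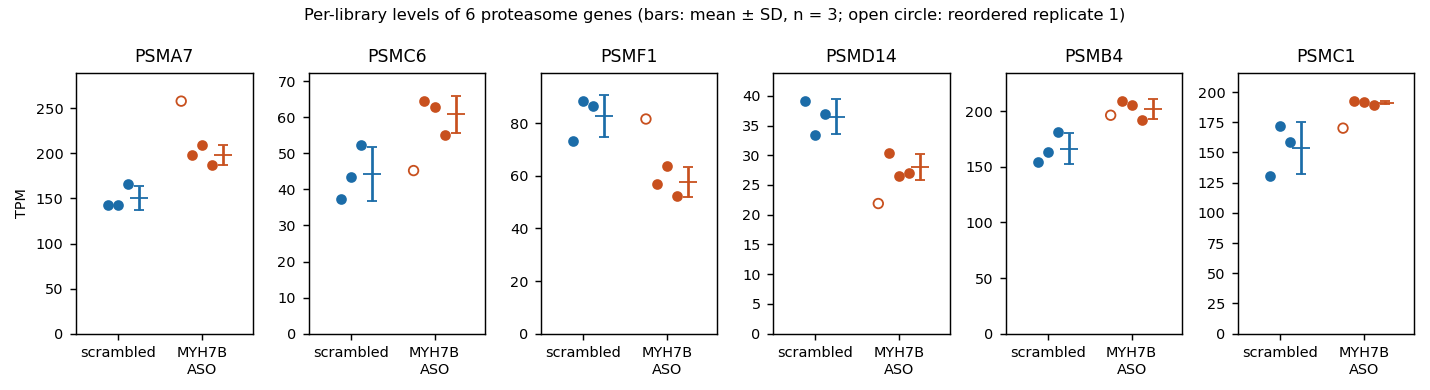
TPM (vertical axes from 0) of 6 proteasome genes, 1 point per library, with the mean and SD of 3 libraries as bars. The open circle is the reordered MYH7B ASO replicate 1, which lies on its group's side for PSMA7, PSMD14 and PSMB4, and with the scrambled libraries for PSMC6, PSMF1 and PSMC1.

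PSMF1, also called PI31, had the lowest p-value of the proteasome genes. It lies on chromosome 20, the chromosome of MYH7B, at positions 1113263 to 1189415 in the GENCODE 29 annotation of GRCh38, where MYH7B spans 34975403 to 35002437. PSMA7 is on chromosome 20 too, and was higher in mean (log2 fold change 0.39). A link between position and change was not tested. PSMF1 had 73.4, 88.4 and 86.4 TPM in the scrambled libraries and 56.7, 63.8 and 52.3 TPM in MYH7B ASO replicates 2 to 4. These groups did not overlap, but replicate 1, at 81.6 TPM, lay within the scrambled range. The scrambled mean was 82.7 ± 8.15 TPM (SD, n = 3) and the MYH7B ASO mean 57.6 ± 5.84 TPM (SD, n = 3). The PSMF1 difference was -0.52 on the log2 scale (standard error 0.14, limma unadjusted p = 0.00654, adjusted p = 0.139), or -0.39 with replicate 1 (adjusted p = 0.408). It was -0.41 in the authors' deposited table (adjusted p-value 0.0462). Per mean alpha subunit, PSMF1 was at 69.7%, 85.7% and 76.0% and then at 51.3%, 53.2% and 48.8%, with 80.7% in replicate 1. PSMF1 is overlapped by TMEM74B (4.06 TPM) on the other strand.

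All 4 activators had fold changes above 0, from 0.02 to 0.25. PSME1 and PSME2 form the interferon-inducible 11S cap. PSME1 had 92.6, 103 and 112 TPM and then 144, 131 and 96.7 TPM, so MYH7B ASO replicate 4 stayed within the scrambled range (log2 fold change 0.25, standard error 0.17, limma adjusted p = 0.542). PSME2, PSME3 and PSME4 had 0.11, 0.09 and 0.02, each within its standard error.

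Of the 4 chaperones that assemble the core, 3 had a fold change below 0 and 1 above, and none passed across all genes. PSMG1 and PSMG2 form a pair, as do PSMG3 and PSMG4, and each pair guides the alpha ring. PSMG2 had 46.4, 48.9 and 50.7 TPM and then 45.3, 35.5 and 41.4 TPM, with 21.4 TPM in replicate 1 and no overlap (log2 fold change -0.26, limma adjusted p = 0.447). PSMG1 had 10.9, 14.9 and 19.9 TPM and then 12.1, 8.998 and 12.5 TPM (-0.39, standard error 0.24). Leaving out 1 library moved PSMG1 between -0.59 (without scrambled replicate 1) and -0.18 (without scrambled replicate 3). PSMG4 had 18.8, 14.98 and 8.35 TPM and then 10.4, 7.66 and 7.12 TPM (-0.63, standard error 0.29, limma adjusted p = 0.352). Scrambled replicate 3 lay within the MYH7B ASO range for PSMG4, and replicate 1 had 15.9 TPM. The PSMG4 value was -0.39 without scrambled replicate 1 and -0.94 without scrambled replicate 3. PSMG3 was the one above 0, with 11.6, 6.43 and 13.8 TPM and then 17.1, 12.4 and 16.1 TPM (0.53, standard error 0.27), or 0.23 without its low scrambled replicate 2.

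The chaperones of the cap base were within the spread. PSMD9 had 15.1, 15.8 and 37.1 TPM and then 28.7, 28.5 and 24.6 TPM, and without the high scrambled replicate 3 its log2 fold change moved from 0.37 to 0.78 (limma adjusted p = 0.0917). PSMD10, also known as the oncoprotein gankyrin, had 59.2, 31.1 and 36.2 TPM and then 36.5, 37.1 and 32.3 TPM. Without the high scrambled replicate 1 its change moved from -0.20 to 0.07. PSMD5 had -0.10 with a standard error of 0.25.

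Genomic span went with the direction of change, in proteasome genes as in others. The 8 tested genes that span over 60 kb in GENCODE 29 had a median log2 fold change of -0.17, and 5 of them were below 0. These 5 were PSMF1 (76.2 kb), PSMD14 (104 kb), PSMG4 (72.0 kb), PSMG2 (67.7 kb) and PSMA1 (139 kb). The exceptions were PSMB7 (62.0 kb), PSMD1 (116 kb) and PSME4 (107 kb). The 14 genes under 10 kb had a median of 0.22, with 4 below 0, and the 21 from 10 to 30 kb a median of 0.14, with 4 below 0. All 3 genes from 30 to 60 kb were below 0. Among all protein-coding genes tested the medians for the same classes, from short to long, were 0.13, 0.04, -0.08 and -0.23. Spearman's rho of span and fold change was -0.36 over the 46 proteasome genes and -0.40 over the 12952 protein-coding genes. These are across genes of the same libraries, which are not independent replicates. The lower values of PSMF1, PSMD14 and PSMG4 thus occurred among long genes, whose median was below 0 in general, and the part of span in them was not tested.

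**Figure D4:**
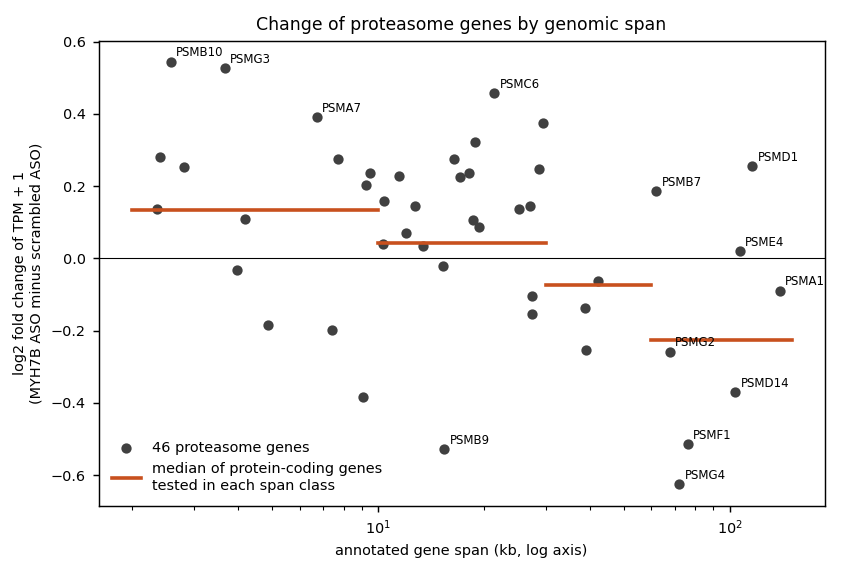
Log2 fold change of TPM + 1 (MYH7B ASO minus scrambled ASO, vertical axis) of the 46 tested proteasome genes against their annotated span in kb (horizontal log axis). The horizontal bars are the medians of all protein-coding genes in 4 span classes, from 0.13 under 10 kb to -0.23 over 60 kb, the last drawn only as far as the proteasome genes reach.

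Other genes of the pathway were taken from lists chosen by function. Of 20 proteasome partners, 14 had a fold change above 0 (45.2% of all genes tested were), with a median of 0.11. Limma called 0 of them, as did the authors' deposited table. At an unadjusted limma p under 0.05, 2 were higher and 0 lower, against 4.67% and 10.6% of all genes. UCHL5, a deubiquitinase of the cap, had the largest change among them. It had 9.54, 8.83 and 10.6 TPM and then 12.8, 16.6 and 14.9 TPM, with 14.7 TPM in replicate 1 and no overlap (log2 fold change 0.56, standard error 0.17, limma adjusted p = 0.167). ADRM1, the receptor that docks UCHL5, had 33.6, 30.2 and 33.7 TPM and then 38.8, 44.4 and 36.0 TPM, also without overlap (0.28, limma adjusted p = 0.409). USP14, the other deubiquitinase of the cap, had 0.10 with a standard error of 0.14. POMP, which matures the core, had 0.12, and SEM1, the smallest cap subunit, had -0.05 with a standard error of 0.30.

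NFE2L1 itself had 133, 116 and 115 TPM and then 128, 106 and 93.8 TPM (log2 fold change -0.16, standard error 0.15, limma adjusted p = 0.653). The NFE2L1 list holds NFE2L1, related factors, their regulators, and the p97 unfoldase with its adaptors. In it 10 of 15 genes were below 0 (54.8% of all genes tested were), with a median of -0.16. At an unadjusted limma p under 0.05, 1 was higher and 2 were lower, against 4.67% and 10.6% of all genes. Of these 15 genes 1 was called lower, against 1.48% of all genes. That gene was FAF1, an adaptor of p97 that binds ubiquitinated proteins, with a span of 523 kb. FAF1 fell from 39.7, 24.8 and 20.9 TPM to 9.24, 9.43 and 11.7 TPM, with 3.36 TPM in replicate 1 (log2 fold change -1.36, limma adjusted p = 0.0350). FAF1 had -1.08 in the authors' deposited table (adjusted p-value 2.84e-05). The FAF1 call held under 4 of 15 alternatives and was lost under 11, with log2 fold changes from -1.88 to -1.10 and limma adjusted p from 0.0152 to 0.236 over the 15. It was lost with a pseudocount of 5 (0.052), no filter (0.155), median-ratio rescaling (0.0657), replicate 1 added (0.0768) and both replicate blocks (0.134 and 0.236). Leaving out any 1 library other than scrambled replicate 3 also ended it (0.0605 to 0.127). SEL1L, of the same list, was called lower only in the authors' deposited table (log2 fold change -0.575, adjusted p-value 0.00376). It had 21.3, 22.4 and 25.3 TPM and then 12.9, 14.3 and 14.9 TPM (limma adjusted p = 0.0779). For SEL1L replicate 1, at 23.2 TPM, lay within the scrambled range.

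In the remaining lists limma called 0 genes. The counts at an unadjusted p under 0.05 that follow stand beside 4.67% of all genes higher and 10.6% lower. Those of genes below 0 stand beside 54.8% of all genes tested. Ubiquitin and its activating enzymes had 4 of 6 below 0 (3 of 6 after median-ratio rescaling), and UBA6 had the largest difference (-0.44, standard error 0.24). At that p there was 1 lower gene. Muscle ubiquitin ligases had 8 of 13 below 0 (5 of 13 after median-ratio rescaling or without mitochondrially encoded genes), with 2 lower at that level, and NEDD4 had the largest difference (-0.57, limma adjusted p = 0.206). Antigen presentation genes were split 6 and 6 (7 above and 5 below 0 after median-ratio rescaling), with 1 higher. HLA-B had the largest difference (-0.71, standard error 0.44). Without MYH7B ASO replicate 2 the HLA-B value was -0.29, and without scrambled replicate 2 it was -1.09. The COP9 signalosome, a complex built like the cap's lid, had 7 of 10 below 0 (6 of 10 after median-ratio rescaling). At that p 1 was higher, COPS6 (0.32, limma adjusted p = 0.265). Autophagy genes were split 7 and 7, with 2 higher and 1 lower, and ATG7 had the largest difference (-1.46, limma adjusted p = 0.0910), with a span of 285 kb. The authors' deposited table called 3.02% of its genes higher and 5.69% lower. Beside these shares, it called 1 of 12 genes of the antigen presentation list higher. Of 14 autophagy genes it called 2 higher and 1 lower. It called 2 of 15 lower in the NFE2L1 list and 0 in each of the others.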

How the data were processed

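Values are TPM as deposited by the authors for 60234 genes in 7 libraries. The quantifier is not given in the sources used here. The submitters' processing notes name GRCh38.p13 and DESeq2 without a role. The authors' deposited comparison table holds log2 fold changes (named by the authors as shrunken), their standard errors, a test score, p-values and adjusted p-values, and a mean normalized count (signal). Which libraries entered it and its direction are not given in the sources used here; its MYH7B value is below 0, so it was read as MYH7B ASO against scrambled. TPM keeps no depth, so depth is unknown and replicate spread is the error. The column of MYH7B ASO replicate 1 holds 58721 values. Assigned to the sorted gene identifiers of GENCODE 29, they had a median correlation of 0.955 with the other libraries, against 0.408 as deposited. It entered only an alternative.

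The test used limma 3.58.1 (R 4.3.3; lmFit, eBayes with trend) for genes whose mean reached 1 TPM, on log2(TPM + 1), a pseudocount of 1 that understates changes of low genes, with Benjamini-Hochberg adjustment. Called means an adjusted p under 0.05. Python 3.11.15, pandas 2.3.3 and matplotlib 3.10.9 made tables and plots. The members and lists were chosen with earlier results of these data known. Values in every library are given for called genes, for the 5 largest changes each way, for the most abundant gene of each role and for catalytic, receptor and inhibitor subunits, and for genes without overlap, chosen after their values were seen. Alternatives were other pseudocounts, filters, scalings and libraries, and a replicate block.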

Additional observations from a re-analysis of the deposited data

Results flagged for a closer look

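With MYH7B ASO replicate 1 reordered, 5 of the 46 tested proteasome genes (10.9%) had 1 library of that group's 4 standing far from the other 3. Chance gives about 1 in 20 genes, and 9.46% of all genes tested had such a library. Replicate 1 was the far library in all 5, and in 5.41% of all genes tested. It had 71.9 TPM of PSMA2, against 105 to 107 TPM in the others, and 104 TPM of PSMA6, against 133 to 139 TPM. It had 170 TPM of PSMC1, against 190 to 192.5 TPM. It was high in PSMD2, with 204 TPM against 114 to 117 TPM, and in PSMD9, with 53.5 TPM against 24.6 to 28.7 TPM. The untested PSMB11 was listed at 0.0919 TPM in MYH7B ASO replicate 4 and at 0 in the others, where any value above 0 would stand apart, so it is not counted.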

How the results depend on the processing

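Under all 15 alternatives limma called 0 proteasome genes, with a lowest adjusted p of 0.0652 (PSMA7 after median-ratio rescaling). That scaling gave 14 higher (all genes 8.6%) and 2 lower (9.23%) at an unadjusted p under 0.05, against 4 and 2 in the comparison as reported. The median log2 fold change of the proteasome genes stayed above 0 under all 15, from 0.07 to 0.20, and 0.07 to 0.18 when 1 library was left out. The number of all genes called went from 265 to 40 with no filter on low values and 170 with MYH7B ASO replicate 1 reordered, and was 53 to 149 when 1 library was left out. Of the other pathway genes 1 was called, and 0 with a pseudocount of 5, no filter, median-ratio rescaling or replicate 1, and 0 to 2 without 1 library. No label says whether same-numbered titles are pairs. The deviations of the 3 such pairs correlated at 0.019, 0.142 and 0.0205, and those of differently numbered libraries at -0.159 to 0.15. With so few libraries this cannot show or exclude a pairing. The column names number scrambled replicates 2 and 3 otherwise, and a block by those names was not run. A replicate block on the number in the title (2 pairs) called 0 of all genes (1953 at an unadjusted p under 0.05) and 0 pathway genes. Adding replicate 1 to that block (3 pairs) gave 2 and 0. Under these blocks PSMB8 was 0.27 and 0.16, PSMD10 0.13 under the first, NFE2L1 0.008 under the first, and POMP -0.22 and SEM1 0.30 under the second. PSMB8 also changed sign with median-ratio rescaling (0.025) and replicate 1 (0.024), SEM1 with the same settings (0.021 and 0.23) and POMP with replicate 1 (-0.15). Leaving out 1 library gave ranges of -0.21 to 0.14 for PSMB8, -0.385 to 0.068 for PSMD10, -0.045 to 0.14 for PSMD2 and -0.34 to 0.29 for SEM1. The causes were not tested. Of 584 values of 39 named genes under the alternatives, 550 kept direction and side of the threshold. MYH7B was not called with no filter, with replicate 1, without MYH7B ASO replicate 4 or under either block (limma adjusted p = 0.0779, 0.0525, 0.0618, 0.078 and 0.0979). The depth of each library is unknown, so no limit from counting is given per library for the low genes. The authors' mean normalized count, over libraries that are not named, was 37.5 for PSMB9, 179 for PSMB8 and 245 for PSMG1.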
